A study of Caenorhabditis elegans with 2 samples.

Results

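The genes described are cebp-1 and 5 genes of the kinase pathway that acts on it, dlk-1, mkk-4, pmk-3, mak-2 and rpm-1, which are 6 of 19985 annotated protein-coding genes of Caenorhabditis elegans. They were followed in peak lists from chromatin immunoprecipitation and sequencing (ChIP-seq) of FOS-1 tagged with eGFP, a worm relative of the mammalian Fos proteins. cebp-1 was chosen by the signal of a peak upstream of it in these same lists, and the other genes were chosen for their place in its pathway. The values of that peak are therefore given as a description, without a test. The worms were whole L4 larvae of both sexes, of strain OP304 with the genotype unc-119(ed3) III; wgIs304, in which an insertion, wgIs304, supplies the tagged fos-1. There were 2 biological replicates in 1 group, so no stage, strain or treatment was compared with another. Signal from whole animals does not tell which cells it comes from, and the cells that express the tagged protein are not given in the labels.

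CEBP-1 is a basic leucine zipper (bZIP) transcription factor of the CCAAT-enhancer-binding family. In worm neurons the kinase DLK-1 activates the kinase MKK-4, which activates the p38-type kinase PMK-3, which activates the kinase MAK-2, and this cascade raises the stability of cebp-1 mRNA. The ubiquitin ligase RPM-1 keeps the cascade low by causing DLK-1 to be degraded. The pathway is known for its roles in synapse formation and in regrowth of cut axons. Fos proteins are bZIP factors too, and with Jun partners they bind the AP-1 consensus, which reads TGAGTCA on one strand and TGACTCA on the other.

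A summit is the position of highest signal in a region. Summits were collected in each gene and 5000 bp to each side, from 4 lists on build ce11. The set that passed the authors' irreproducible discovery rate (IDR) threshold holds 248 regions, the pooled list 3527, the replicate 1 list 30000 and the replicate 2 list 29345. The pooled and replicate lists include background, so a region in them need not be a binding site. The IDR set is the 248 highest regions of the pooled list. Signal is a value that the authors' peak caller assigned to each region, on a scale not given in the sources, with a median of 19.3 in the pooled list, 6.58 in replicate 1 and 7.02 in replicate 2. It was compared within a list or as a multiple of that list's median. Read counts were not used here and the depth is unknown.

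cebp-1 had 2 regions of the IDR set upstream of its 5' end, and none of the other 5 genes had one. Over the 6 genes that is 1 gene with an IDR summit, where the same rule found a summit for 3.46% of 19973 nuclear protein-coding genes. Genes with 2 or more IDR summits made up 0.320% of them. The nearest IDR summit to a gene body lay 81900 bp from dlk-1, 150235 bp from rpm-1, 204170 bp from mak-2, 387595 bp from pmk-3 and 449718 bp from mkk-4. Both peaks at cebp-1 were intergenic, a word used here for a place outside every annotated protein-coding transcript. Noncoding genes were not looked at for this. cebp-1 had the nearest annotated protein-coding 5' end to each of the 2 peaks.

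cebp-1 (WBGene00016997) lies at chrX:1452695-1453868 on the minus strand, with 1 annotated transcript. The region of higher signal, at chrX:1454451-1454794, had its summit 755 bp upstream of the 5' end, and the region of lower signal, at chrX:1453882-1454225, had its summit 186 bp upstream. The summits are 569 bp apart, and 225 bp separate the regions. The windows of 100 bp to each side of these 2 summits are shown because they carry the words counted below. They are given 5' to 3' on the strand of cebp-1, from chrX:1454523-1454723 and chrX:1453954-1454154 of ce11. Capitals in the upstream window mark 2 AP-1 sites and 3 copies of the octamer CTGCGTCT on either strand, and capitals in the proximal window mark the word TGACGTCA.
upstream window of cebp-1: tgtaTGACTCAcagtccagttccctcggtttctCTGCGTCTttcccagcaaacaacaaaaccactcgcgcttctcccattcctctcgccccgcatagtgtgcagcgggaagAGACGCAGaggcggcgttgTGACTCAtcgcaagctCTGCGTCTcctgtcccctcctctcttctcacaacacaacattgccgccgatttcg
proximal window of cebp-1: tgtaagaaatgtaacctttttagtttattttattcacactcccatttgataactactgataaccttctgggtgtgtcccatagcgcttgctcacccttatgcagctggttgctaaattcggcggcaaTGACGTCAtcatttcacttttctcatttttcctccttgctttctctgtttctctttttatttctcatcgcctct

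The upstream region ranked 2 in the IDR set, with a signal of 132 against a set median of 38.1. It ranked 2 in replicate 1 with a signal of 72.6, which is 11.0 times that list's median, and 17 in replicate 2 with a signal of 62.2, which is 8.87 times the median. Replicate 2 holds regions on mitochondrial DNA among its highest, and among its nuclear regions this one ranked 2. The region was thus high in both replicates, and its summit moved by 23 bp in replicate 1 and 5 bp in replicate 2 from the pooled position. The authors' −log10 q-value was 2.56 in replicate 1 and 1.38 in replicate 2, the highest value in each list, and 2.45 in the pooled list. The value does not set the region apart, since the median of the IDR set was also 2.45 and the region 186 bp upstream also had 1.38 in replicate 2.

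The proximal region was weaker, and the replicates ranked it differently. It ranked 215 of the 248 in the IDR set, with a signal of 32.5 where the lowest of the set was 31.1. In replicate 1 it ranked 2065 with a signal of 11.4, or 1.73 times the median, and in replicate 2 it ranked 215 with 19.3, or 2.75 times the median. The summits lay 18 bp and 3 bp from the pooled position. The rank was thus higher in replicate 2 than in replicate 1.

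**Figure D1:**
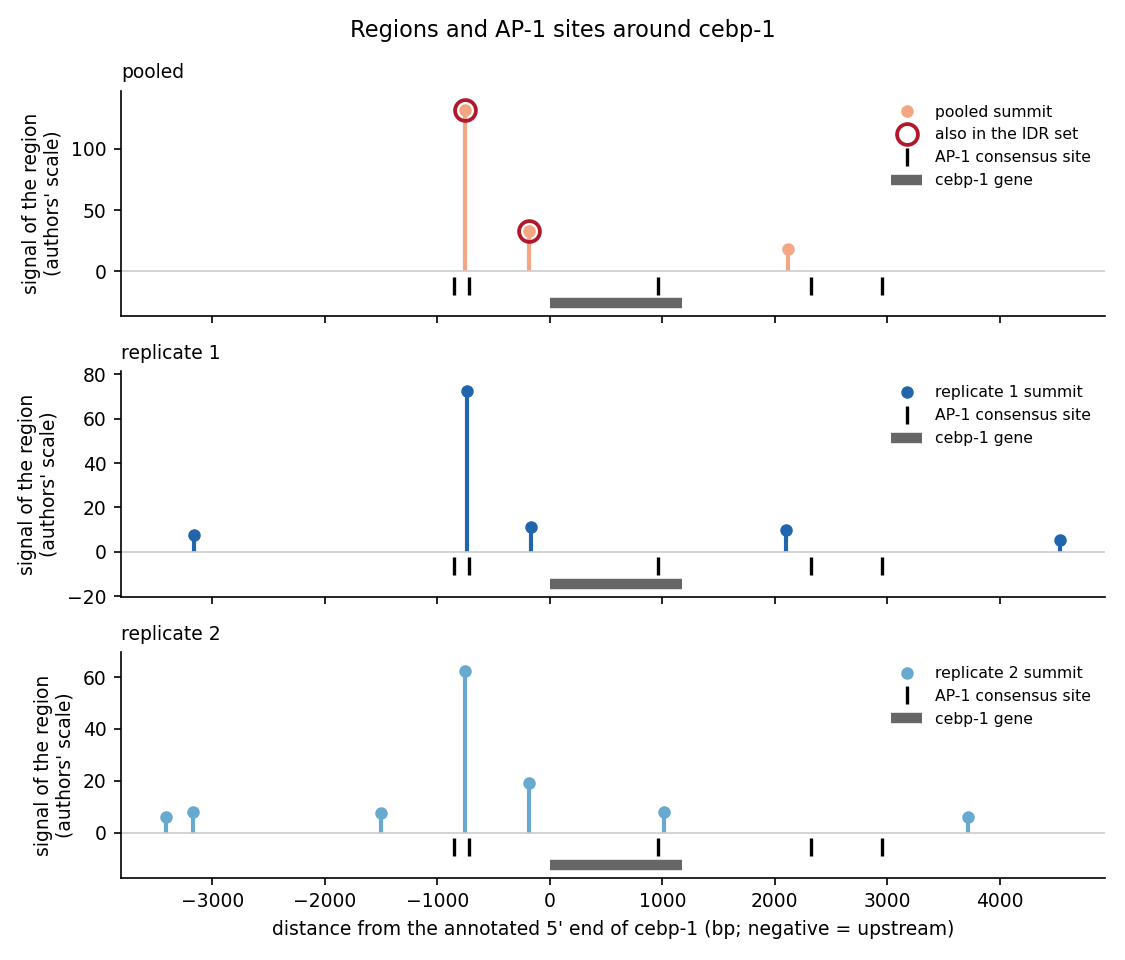
Signal of each region (vertical axis, authors' scale) against the distance of its summit from the 5' end of cebp-1 (horizontal axis, bp), in the pooled list (top), replicate 1 (middle) and replicate 2 (bottom). Circles around points mark regions also in the IDR set, ticks mark AP-1 sites and the grey bar the gene; the upstream region, with its pooled summit 755 bp from the 5' end, is the highest in each panel, and 2 of the 5 AP-1 sites lie by it.

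Weaker regions also lay around cebp-1. The pooled list had 1 more, in an intron of the neighbouring gene W05H7.1 at chrX:1451581-1451924, with a signal of 17.8, rank 2545 and a −log10 q-value of 0.0506. It was matched within 200 bp by a summit of replicate 1 (signal 9.84, rank 3810) and by none of replicate 2. Replicate 1 held 5 summits in the window and replicate 2 held 7. Leaving out the upstream and proximal regions, ranks in the replicate lists ran from 3810 to 23030. A further IDR region lay just outside the 5000 bp limit, at chrX:1446754-1447097, 5769 bp downstream of cebp-1. It had a signal of 33.7 and rank 187, and its summit was 283 bp upstream of zfp-3, so zfp-3 and not cebp-1 had the nearest 5' end.

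The upstream region held 2 AP-1 sites. A site was found within 100 bp of the summit in 8.06% of the 248 IDR regions, and 2 or more sites in 1.21%, which is 3 regions. On the strand of cebp-1 both sites read TGACTCA. Their centres lay 722 bp and 848 bp upstream of the 5' end, 33 bp and 93 bp from the IDR summit and 126 bp from each other. The site at chrX:1454587-1454593 was also within 100 bp of the summit in both replicates, at 10 bp in replicate 1 and 28 bp in replicate 2. The centre of the site at chrX:1454713-1454719 lay 116 bp from the replicate 1 summit and 98 bp from the replicate 2 summit, where the whole site no longer lay within the window. The 2 sites are therefore counted with the pooled summit position and 1 site with either replicate's.

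The window of 11174 bp around cebp-1 held 5 AP-1 sites, or 4.47 per 10 kb, where the nuclear genome has 0.955 per 10 kb. The density was 1.76 at dlk-1, 1.63 at rpm-1, 1.44 at pmk-3, 0 at mkk-4 and mak-2, and 1.49 over the 6 windows. cebp-1 was chosen for its peak, and 2 of its 5 sites lie by that peak. All 5 are shown with 10 bp to each side, on the strand of cebp-1 and with the site in capitals, so that the sites by the peak can be set beside those away from it.
848 bp upstream, by the peak: atgacatgtaTGACTCAcagtccagtt
722 bp upstream, by the peak: ggcggcgttgTGACTCAtcgcaagctc
962 bp downstream of the 5' end, in a cebp-1 intron: caggaataagTGAGTCAgaataaaacc
2324 bp downstream of the 5' end, in a coding exon of W05H7.1: tcgccgcttcTGAGTCAactttttctg
2952 bp downstream of the 5' end, in an intron of W05H7.1: ttatgctcaaTGACTCAtgtttactac

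The word was thus also present away from the peaks, and the nearest IDR summit to the other 3 sites was 1148 bp to 3138 bp away. The site in the W05H7.1 exon was 209 bp from the pooled summit of signal 17.8. The 9580 AP-1 sites of the nuclear genome had an IDR summit within 100 bp in 0.240% of cases and a pooled summit in 1.20%. The site in the cebp-1 intron, at chrX:1452903-1452909, had a replicate 2 summit 57 bp away, with signal 8.12 and rank 9703. The nearest summit of replicate 1 was 1130 bp from it.

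The 2 regions at cebp-1 differed in their words. The proximal region held no AP-1 site, with an exact match or with 1 mismatch allowed. It held 1 copy of TGACGTCA, the cAMP response element, which is bound by bZIP proteins of the CREB and ATF families and does not overlap an AP-1 match. That word lay at chrX:1454020-1454027, 155 bp upstream of the 5' end and 30 bp from the summit. It was found in 1.21% of IDR regions, which is 3 of 248, and in 0.822% of pooled regions. The word was searched after the sequence of the proximal region was seen, and that region is 1 of the 3. The 2 shares therefore both include the region that led to the search, and no excess is read from them.

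The upstream region also held 3 copies of the octamer CTGCGTCT, at 14, 49 and 63 bp from the summit. This word was noticed in the sequence of that region and then counted elsewhere. It occurred in 12.5% of the 248 IDR regions and in 4.28% of pooled regions, and the upstream region of cebp-1 alone in the IDR set had 3 copies (0.403%). Without that region, 30 of 247 IDR windows (12.1%) held it, against 2 of 494 windows centred 1000 bp to each side of the same summits (0.405%) and 120 of 3279 pooled regions outside the set (3.66%). The AP-1 consensus was in 19 of the same 247 IDR windows and 5 of the 494 flanking windows. Both words occurred together in 4 of the 247. The proximal region held no copy of the octamer. The base composition of the 2 windows differed as well, with 56.2% G and C in the upstream one and 39.3% in the proximal one.

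**Figure D2:**
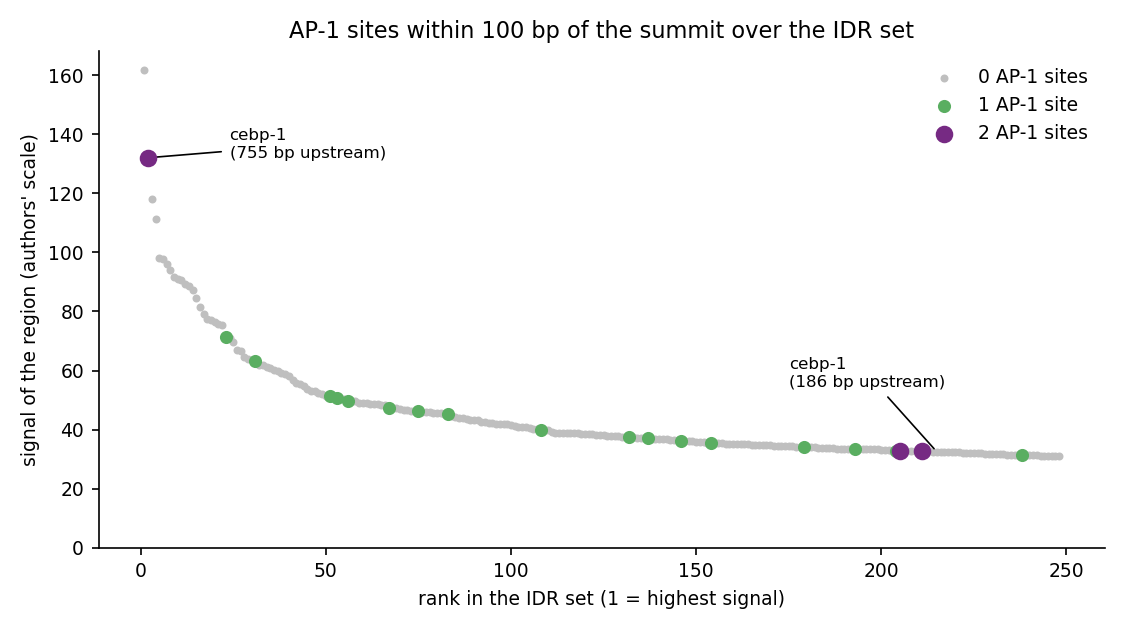
Signal (vertical axis, authors' scale) against rank (horizontal axis) for the 248 regions of the IDR set, with colour and size for 0, 1 or 2 AP-1 sites within 100 bp of the summit. The upstream region of cebp-1 is the only region with a site above rank 23, and the other regions with 2 sites ranked 205 and 211.

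The regions most like the upstream region were picked by signal and by number of sites. The 5 IDR regions closest to it in signal, ranks 1, 3, 4, 5 and 6, had signals of 97.6 to 162 and no AP-1 site. All 5 were intergenic and 4 were on the X chromosome, with W02H3.3, F20B6.9, F22H10.2 and F19H6.5 as the nearest protein-coding genes, and the remaining one was by the ribosomal protein gene rpl-3. The other IDR regions with 2 sites were near the bottom of the set. One was 3540 bp upstream of txt-19 (signal 32.9, rank 205), and the other was in an intron 2294 bp from the 5' end of F09A5.3 (signal 32.7, rank 211). Their sites were 36 bp apart in each case. Over the set, the median signal was 38.7 for the 20 regions with a site and 38.1 for the 228 without.

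dlk-1 (WBGene00001008), the kinase at the top of the cascade, lies on the minus strand at chrI:12565800-12572801 and has 4 annotated 5' ends. It had no IDR summit and 2 pooled summits, both in the gene body. A pooled summit in the window was found for 4 of the 6 genes, cebp-1, dlk-1, pmk-3 and mak-2, and for 33.8% of all nuclear protein-coding genes. cebp-1 is among the 4 by choice, since it was picked for its peak. The 6 genes also have longer windows, with a median of 14.4 kb against 12.0 kb over all nuclear protein-coding genes. The higher pooled region of dlk-1 had a signal of 20.0 and rank 1503, with its summit in an intron 180 bp upstream of the internal 5' end at position 12570864. It ranked 1073 in replicate 1 with a signal of 13.1 (1.99 times the median) and 8652 in replicate 2 with 8.40 (1.20 times). The other, in a coding exon, had a signal of 17.6 and rank 2692, and ranked 1057 in replicate 1 but 26614 in replicate 2. The −log10 q-values of the 2 pooled regions were 0.173 and 0.0486, where the median of the pooled list was 0.131.

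The replicates differed at dlk-1 in the number and signal of regions in the gene body. Replicate 1 held 11 summits in the window, 7 of them in the gene body, with ranks from 1057 to 23056, and replicate 2 held 8 summits, 3 of them in the gene body, with ranks from 3330 to 26614. Per 10 kb that is 6.47 and 4.71 summits, where the nuclear genome has 2.99 in replicate 1 and 2.92 in replicate 2. The 7 gene body regions of replicate 1 had signals of 8.04 to 13.2, or 1.22 to 2.00 times the median, and the 3 of replicate 2 had 5.36 to 8.40, or 0.763 to 1.20 times. The highest regions of replicate 2 in this window lay 2113 and 2646 bp upstream of the outermost 5' end. Replicate 1 had a region 2807 bp upstream (signal 8.14, rank 7833), within 200 bp of the one at 2646 bp. Of the 11 replicate 1 summits, 5 had a replicate 2 summit within 200 bp. An AP-1 site in an intron of dlk-1 had a summit 81 bp away in replicate 1 (rank 2875) and 96 bp away in replicate 2 (rank 22641), and the nearest pooled summit was 825 bp away.

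mkk-4 (WBGene00003368), the kinase that DLK-1 activates, lies on the plus strand at chrX:10027856-10030130. It had no IDR or pooled summit in the window, and the nearest pooled summit was 21156 bp away, with rank 2530. A region 1230 bp upstream in replicate 1 (signal 5.58, rank 22022) matched one 1194 bp upstream in replicate 2 (signal 7.62, rank 11691). The other 3 summits of replicate 1 and 5 of replicate 2 ranked from 12702 to 28130, and the 3 of replicate 1 lay in or past the downstream gene sek-6. All signals lay between 0.738 and 1.08 times the median of their list. The window held no AP-1 site.

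pmk-3 (WBGene00004057), the p38-type kinase below MKK-4, lies on the plus strand at chrIV:8139219-8143154 and is followed by pmk-2, another p38-type kinase gene of the same operon. It had 1 pooled summit, at chrIV:8143102-8143445, with signal 17.1 and rank 3059. This summit was 120 bp past the 3' end of pmk-3 and 226 bp upstream of pmk-2, so pmk-2 had the nearest 5' end. It ranked 5259 in replicate 1 (signal 9.09), and a summit 146 bp away ranked 12724 in replicate 2 (signal 7.39). Replicate 1 also had a region 128 bp downstream of an internal 5' end of pmk-3, with signal 9.27 and rank 4869, which no summit of replicate 2 matched.

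An AP-1 site lay in front of pmk-3 without a summit by it. Its centre was 74 bp upstream of the first 5' end, in the 126 bp between pmk-3 and the upstream gene islo-1. The nearest summits were 1225 bp away in replicate 1, 864 bp in replicate 2 and 4129 bp in the pooled list. The site is shown with 10 bp to each side, from chrIV:8139132-8139158 on the strand of pmk-3, because, of the 14 AP-1 sites in the 6 windows, it lay closest to an annotated 5' end of the window's own gene. The word is in capitals.
74 bp upstream of pmk-3: caatcgctgcTGACTCAtatctgattg

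mak-2 (WBGene00007007), the last kinase of the cascade, lies on the plus strand at chrIV:885344-890200. It had 2 pooled summits near the bottom of the list. The summit 196 bp upstream of the 5' end had signal 16.7 and rank 3391, and the summit 606 bp downstream, in an intron, had signal 16.7 and rank 3411. The region 196 bp upstream was matched in replicate 2 (signal 10.7, 1.52 times the median, rank 3521) and by no summit of replicate 1 within 200 bp. The intronic region ranked 9142 in replicate 1 with signal 7.79, and a summit 146 bp away ranked 13417 in replicate 2 with signal 7.26. Beyond the windows, the nearest pooled summit was 27215 bp from mak-2, 17484 bp from dlk-1 and 9728 bp from pmk-3. The window of mak-2 held no AP-1 site. The share of G and C was 43.3% and 40.8% in the windows of the 2 pooled summits of dlk-1. It was 25.9% in that of pmk-3 and 31.8% in the intronic one of mak-2. The window around the summit 196 bp upstream of mak-2 is shown for contrast with those of cebp-1, from chrIV:885048-885248 on the strand of mak-2. It has 20.4% G and C, the lowest of the 8 pooled windows. It has no word in capitals because none of the 3 words searched was present.
upstream window of mak-2: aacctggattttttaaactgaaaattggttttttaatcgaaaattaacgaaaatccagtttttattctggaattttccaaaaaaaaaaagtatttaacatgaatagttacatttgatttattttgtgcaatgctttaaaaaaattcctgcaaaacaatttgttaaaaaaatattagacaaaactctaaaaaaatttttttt

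rpm-1 (WBGene00004457), the ubiquitin ligase gene that opposes the cascade, is the longest of the 6 at 14557 bp and lies on the minus strand at chrV:8805399-8819955. It had no IDR or pooled summit, and the nearest pooled summit was 36140 bp away with rank 1376. Replicate 1 held 4 summits in the window, with signals of 5.14 to 7.64 and ranks from 9779 to 25733, and replicate 2 held 3, with signals of 5.12 to 7.48 and ranks from 12310 to 28716. No summit of replicate 1 matched one of replicate 2 within 200 bp. From 5000 bp upstream of its 5' end to 7016 bp downstream of it in replicate 1, and to 11567 bp in replicate 2, there was no summit. Of its 4 AP-1 sites, 2 lay in coding exons and 2 downstream of the gene, and the nearest summit of either replicate to any of them was 322 bp away.

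**Figure D3:**
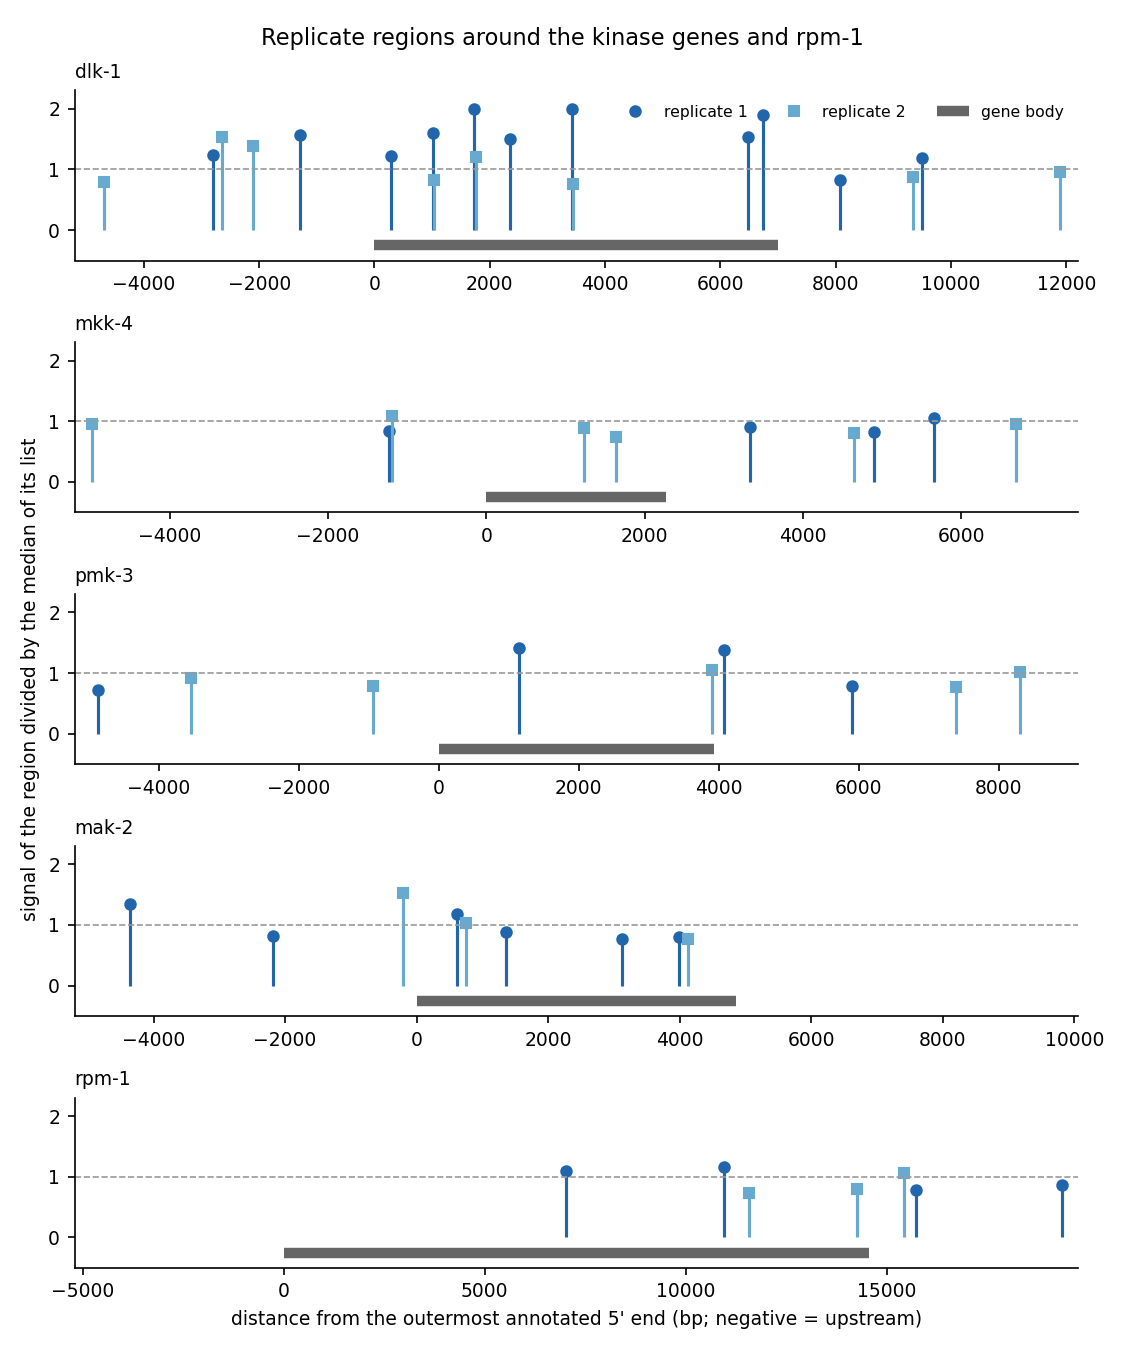
Signal of each replicate region divided by the median of its list (vertical axis, dashed line at 1) against distance from the outermost 5' end (horizontal axis, bp), for dlk-1, mkk-4, pmk-3, mak-2 and rpm-1. Replicate 1 regions in the body of dlk-1 reach 2.00 times the median, while those of mkk-4 and rpm-1 stay between 0.729 and 1.16 times in both replicates.

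Nearly every gene of the genome had a summit in the replicate lists. Each of the 6 genes had at least 1 summit in both lists, and 95.5% of nuclear protein-coding genes had one in replicate 1 and 94.6% in replicate 2. The 6 windows together held 34 summits of replicate 1 and 32 of replicate 2, or 3.62 and 3.41 per 10 kb. The pooled list had 0.853 summits per 10 kb in the 6 windows, 0.605 in the 5 without cebp-1 and 0.352 over the nuclear genome. An AP-1 site lay within 100 bp of 2 of the 34 and of 3 of the 32, where the share over all regions was 2.10% in replicate 1 and 2.28% in replicate 2. Without cebp-1, which was chosen for its peak, it was 1 of 29 in replicate 1 and 1 of 25 in replicate 2, both by the intronic site of dlk-1. Of the 8 pooled regions 1 held a site, the upstream region of cebp-1, and 3.01% of all pooled regions did.

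Agreement between replicates varied from gene to gene. Of the 34 replicate 1 summits, 12 had a replicate 2 summit within 200 bp, and 23.6% of all replicate 1 regions did. The 12 comprised 3 of 5 at cebp-1, 5 of 11 at dlk-1, 2 of 6 at mak-2, 1 of 4 at mkk-4, 1 of 4 at pmk-3 and 0 of 4 at rpm-1. The 3 at cebp-1 include its upstream and proximal IDR regions. cebp-1 was chosen for its peak and the IDR set for agreement between replicates, so those matches are built in. Both replicates matched 6 of the 8 pooled summits within 200 bp, and 73.9% of all pooled regions were matched in this way. The 6 include the 2 IDR regions of cebp-1. Within 100 bp, 4 of the 8 were matched, since the replicate 2 summits at pmk-3 and in the mak-2 intron lay 146 bp away. The pooled list was made from the same alignments, so part of that match is built in.

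**Figure D4:**
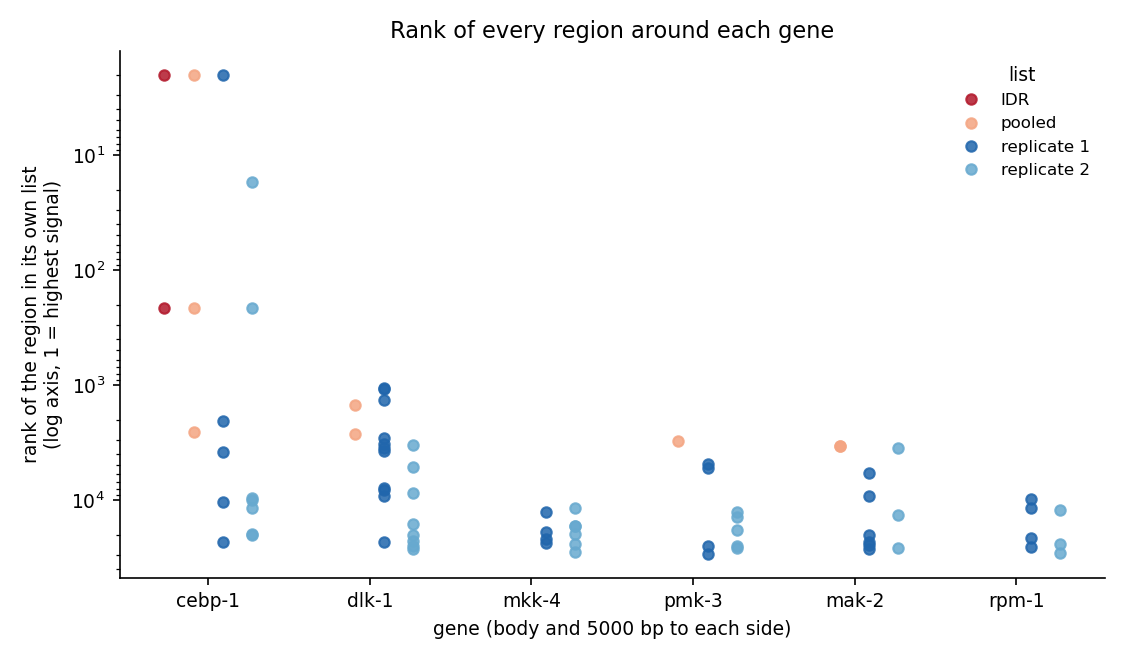
Rank of every region in its own list (vertical axis, log scale, highest signal at the top) for each gene with 5000 bp to each side (horizontal axis), coloured by list. Among the replicate regions, the 2 upstream regions of cebp-1 hold ranks 2 and 2065 in replicate 1 and 17 and 215 in replicate 2, and no region of the other 5 genes is above rank 1057.

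The wider pathway was read from a list of 31 genes, of which 30 had a match in the annotation and ppm-1 did not. An IDR summit lay in the window of 4 of the 30 and a pooled summit in the window of 20. The shares over all nuclear protein-coding genes were 3.46% and 33.8%. A summit in a window can lie nearer to another gene. For glo-4, rae-1, svh-2, kgb-1, kgb-2, tir-1, sek-1, pmk-1, pmk-2, jnk-1 and efa-6, the highest pooled summit was nearest to the 5' end of another gene. The list has longer genes, with a median window of 16.1 kb and 12.0 kb over all nuclear protein-coding genes, and the windows of pmk-1, pmk-2 and pmk-3 overlap. By group, pooled summits were found for 5 of 8 regulators of RPM-1 and DLK-1, 3 of 4 partners and phosphatases of the cascade, 6 of 8 genes of the parallel KGB-1 kinase arm, 5 of 8 other p38 and JNK kinase pathway genes and 1 of 2 axon repair genes.

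Among the 4 with an IDR summit, vhp-1 was the gene with peaks inside it. vhp-1 encodes a phosphatase of JNK and p38-type MAP kinases, and it had 3 IDR summits in introns, with signals of 71.3 (rank 23), 41.8 (rank 98) and 37.0 (rank 137). The regions at ranks 23 and 137 each held 1 AP-1 site. The peak of mak-1, a paralogue of mak-2, had signal 33.3 and rank 199 and lay 82 bp past the 3' end of the gene. The other 2 peaks lay nearer to other genes. That in the window of tir-1, which encodes an adaptor of the p38 pathway, was the rank 4 peak 275 bp upstream of rpl-3. That in the window of kgb-2, a JNK-type kinase gene, was in an intron of ltah-1.2, with signal 37.2 and rank 136.

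Below the IDR set, the highest pooled region in the windows of the list was by mlk-1, which encodes the MAP kinase kinase kinase of the KGB-1 arm. The region lay 585 bp upstream, at chrV:5065224-5065567, with signal 30.8, rank 258 and no AP-1 site. cebp-2, another gene of the CCAAT-enhancer-binding family, fsn-1, which encodes the F-box partner of RPM-1, and glo-1, unc-51, svh-1, mek-1, nsy-1, jkk-1, unc-16 and ptl-1 had no pooled summit. uev-3, which encodes a ubiquitin-conjugating enzyme variant that acts with PMK-3, had 1 with signal 16.9 and rank 3256.

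**Figure D5:**
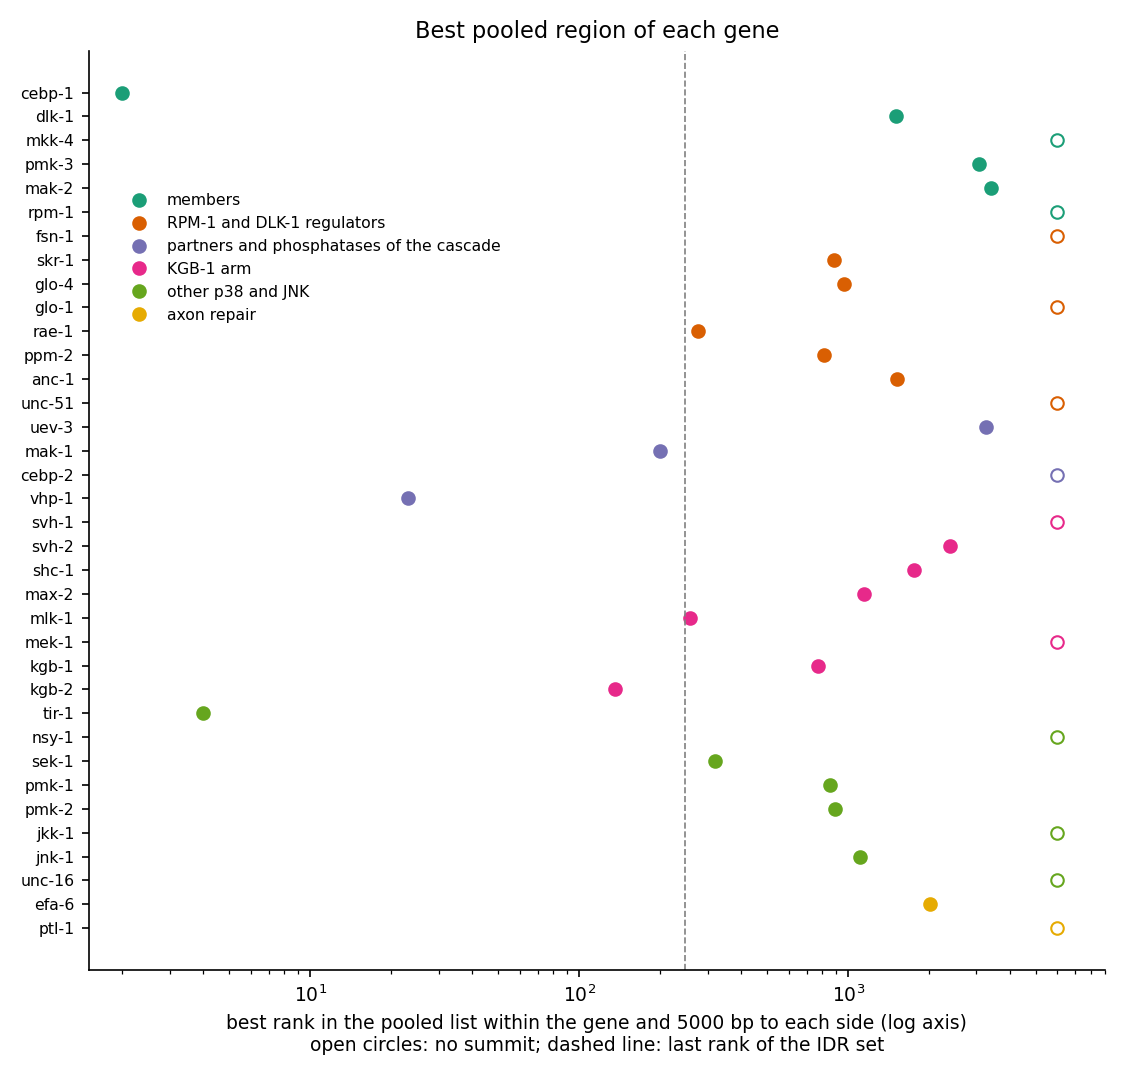
Best rank in the pooled list (horizontal axis, log scale) for each gene with 5000 bp to each side, for the 6 genes and the 30 genes of the wider list, coloured by group. cebp-1 at rank 2, tir-1 at 4, vhp-1 at 23, kgb-2 at 136 and mak-1 at 199 are left of the dashed line that ends the IDR set, and open circles mark genes with no pooled summit.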

How the data were processed

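ChIP-seq of eGFP-tagged FOS-1 was analysed from 4 peak lists on build ce11, made by the authors. Per the file lists deposited with each sample, each replicate list was called on that replicate's alignment with 1 control alignment, the same for both. The pooled list came from both alignments, and the IDR set from the pooled and replicate lists. Which aligner, peak caller and IDR threshold were used is not given in the sources used here. The signal and the −log10 q-value of a region are the authors' deposited values, and the scale of the signal is not stated. Lists on ce10 were not used here. Depth is unknown.

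Genes and 5' ends came from Ensembl release 115 and sequence from the matching RefSeq genome, both WBcel235, which is ce11. Many worm messages are trans-spliced, so an annotated 5' end need not be the start of transcription. Coordinates are 1-based. Summits within 200 bp matched. Words were searched on both strands within 100 bp of each summit. No test was made, since the samples form 1 group. p-values were not computed, and counts are set beside the share over all genes, regions or sites. The genes, the lists and most alternatives were chosen with earlier results of these data known. The octamer CTGCGTCT and the cAMP response element were searched after the sequences were seen. The named genes are the 6, list genes with an IDR summit or among the 5 highest pooled ones, the regions most like that of cebp-1 by signal or number of sites, and nearest neighbours. Other list genes were named after their values were seen. The motif search and the gene windows were checked on simulated data. Tables were made with pandas 2.3.3 and numpy 2.4.6 under Python 3.11.15, and figures with matplotlib 3.10.9.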

Additional observations from a re-analysis of the deposited data

How the results depend on the processing

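Of 30 recomputed values for 10 results, 21 stayed within 1.5 times the main value and 9 did not. The count of genes with an IDR summit stayed at 1 with flanks of 2000 and 10000 bp. It was also 1 in each replicate's highest 248 regions and in the part of the set above its median signal. The gene was cebp-1 each time, and since it was chosen for its peak, its presence follows from that choice. The shares over all nuclear protein-coding genes were 2.04% and 5.48% with those flanks. They were 3.16% for replicate 1, 3.06% for replicate 2 and 1.71% for the part above the median. The count of genes with a pooled summit was 4 in the main analysis and 2 in the part of the pooled list above its median signal. In the highest 3527 regions it was 2 for replicate 1 and 3 for replicate 2. The shares over all nuclear protein-coding genes were 19.1% for the part above the median, 33.7% for replicate 1 and 33.5% for replicate 2. pmk-3 had none in any of these 3 settings, and mak-2 had one only without replicate 1. The rank of the upstream region of cebp-1, 2 in the main analysis, was 2 to 17 when 1 replicate list was used alone, and its AP-1 sites numbered 1 with either replicate's summit and 1 within 50 bp of the summit. The rank of 17 is that in replicate 2, where the region ranks 2 once mitochondrial regions are left out, and the site counts follow from the place of the summit. With 1 mismatch allowed, 4 of the 8 pooled regions held an AP-1 word, as did 32.4% of all pooled regions. Summits of replicate 2 in the windows numbered 18 with flanks of 2000 bp and 55 with 10000 bp, against 32, by construction. No paired analysis was possible because the samples form 1 group. Depth is unknown, and a weak region may be missing from a list for that reason or for others, which was not tested.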
